A study of Mus musculus with 12 samples.

Results

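The genes of the mitochondrial chromosome were followed after depletion of KEAP1, CCNF or both from mouse myoblasts. Every gene that the deposited count table places on chromosome MT was taken, which gave 37 of 54532 genes. They are 13 mRNA genes, 2 rRNA genes and 22 tRNA genes, and the rule that picks them uses only the chromosome. All of them are counted below, and 30 had enough reads to be tested: the 13 mRNAs, both rRNAs and 15 of the 22 tRNAs.

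C2C12 is an established line of mouse myoblasts, the precursor cells that fuse into muscle fibres. Cells growing in serum received siRNA at 30 nM, and the harvest time is taken as 48 h. The paper states this time for its western blots and qPCR and gives none with its RNA sequencing. Whether 30 nM was the total when both siRNAs were added is not given in the sources used here. Of the 4 groups, siCONTROL received a control siRNA, siKEAP1 had Keap1 depleted, siCCNF had Ccnf depleted and siKEAP1/siCCNF had both depleted, with 3 biological replicates each. KEAP1 is the ubiquitin ligase adaptor that keeps the antioxidant transcription factor NRF2 low, and CCNF (cyclin F) is the substrate adaptor of another ubiquitin ligase. The study depleted both together to ask whether loss of CCNF alters what loss of KEAP1 does. All 12 libraries were made from RNA enriched for poly(A) tails.

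Mitochondria keep a small circular chromosome that encodes subunits of the respiratory chain and of ATP synthase, together with the rRNAs and tRNAs that translate them. Both of its strands are transcribed by the polymerase POLRMT with the factors TFAM and TFB2M into long transcripts, which are cut mostly at the tRNAs that lie between the other genes. Most of the mRNAs then receive short poly(A) tails and the rRNAs receive a few adenines. All other mitochondrial proteins are encoded in the nucleus and imported, and a muscle cell gains mitochondria as it differentiates.

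Libraries held from 18464209 to 37743198 counts, of which 414168 to 1384120 fell on the mitochondrial chromosome. Keap1 lay at 84.7 to 90.3 CPM (counts scaled to the library total) in siCONTROL libraries, at a mean of 12.8 in siKEAP1 and 22.2 to 27.2 in siKEAP1/siCCNF. Ccnf lay at 78.1 to 85.8 in siCONTROL, at a mean of 20.1 in siCCNF and 23.7 to 25.5 in siKEAP1/siCCNF, and at 57.3 to 65.2 in siKEAP1. The 6 myoblast markers summed to 1311 to 1474 CPM in siCONTROL and to 650 to 787 over the 9 depleted libraries. The 6 markers of differentiated muscle summed to 52.4 to 122 in siCONTROL, 2.78 to 3.33 in siKEAP1, 14.4 to 20.6 in siCCNF and 5.96 to 6.76 in siKEAP1/siCCNF. Markers of other cell types summed to at most 1.504. The lower muscle markers moved with every result below that compares a depletion with siCONTROL, and their part in it was not tested.

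Several mitochondrial mRNAs have near-identical copies in the nuclear genome, which bears on how their reads could be counted. For each mitochondrial gene, the share of its 100-base windows that also occur in an annotated nuclear transcript was determined from GENCODE M21 (GRCm38). It was 99.9% for mt-Co3, 99.5% for mt-Co2 and mt-Atp6, 98.5% for mt-Nd4l and 97.6% for mt-Nd3. It was 60.8% for mt-Nd4, 30.8% for mt-Co1 and 3.19% for mt-Nd2, and no window of mt-Nd1, mt-Nd5, mt-Nd6, mt-Cytb, mt-Atp8 or either rRNA was shared. The sharing transcripts belong to 10 pseudogenes, of which 7 lie on the minus strand of chromosome 1 within bases 24611535 to 24616197 and 3 on chromosome 2. The first 30 bases of mt-Co2 and mt-Nd3 are shown with their copies because the first pair is identical and the second differs in a single base, in capitals. The position in T3C is counted from the first base of the gene.
mt-Co2 (MT:7013-7042, plus strand): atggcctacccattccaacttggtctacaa
Gm28661 (chr1:24615536-24615565, minus strand): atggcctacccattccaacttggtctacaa
mt-Nd3 (MT:9459-9488, plus strand): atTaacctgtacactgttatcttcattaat
Gm28438 (chr1:24613090-24613119, minus strand): atCaacctgtacactgttatcttcattaat

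RPKM (TMM-scaled CPM divided by gene length in kb), the scale on which genes of different length can be compared, gave the order of the mitochondrial mRNAs in siCONTROL cells. The highest was mt-Co1, the catalytic subunit of cytochrome c oxidase, at a mean of 5970, followed by mt-Nd1 at 3066 and mt-Cytb at 2981, which encode a core subunit of complex I and the cytochrome b of complex III. Then came mt-Nd5 at 1186, mt-Nd2 at 1143, mt-Nd6 at 1090 and mt-Nd4 at 883, all complex I subunits. The libraries of mt-Nd1 and mt-Cytb overlapped, as did those of mt-Nd5 with mt-Nd2 and of mt-Nd2 with mt-Nd6.

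The 5 mRNAs with over 90% of windows shared lay far lower. They were mt-Co2 at 86.7 and mt-Co3 at 28.9 (complex IV subunits), mt-Atp6 at 22.6 (the membrane subunit of ATP synthase), and the complex I subunits mt-Nd4l at 6.34 and mt-Nd3 at 4.57, whose libraries overlapped. Together these 5 genes held 0.374 to 0.601% of the mitochondrial mRNA reads of a library. Their nuclear copies and those of mt-Nd4, mt-Co1 and mt-Nd2 held 3129 to 8449 reads per library. How the authors treated reads that map to more than 1 place is not given in the sources used here, so the levels of these 5 genes are uncertain. mt-Atp8 was the lowest at 2.54, with 8 to 13 reads per siCONTROL library. It has only 204 bases, of which 43 overlap mt-Atp6, and shares no window with an annotated nuclear transcript. It lies mostly between mt-Co2 and mt-Atp6, whose copies Gm28661 and Gm10925 lie near each other on chromosome 1. The unannotated bases between these copies were not searched, so the level of mt-Atp8 is uncertain too.

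**Figure D1:**
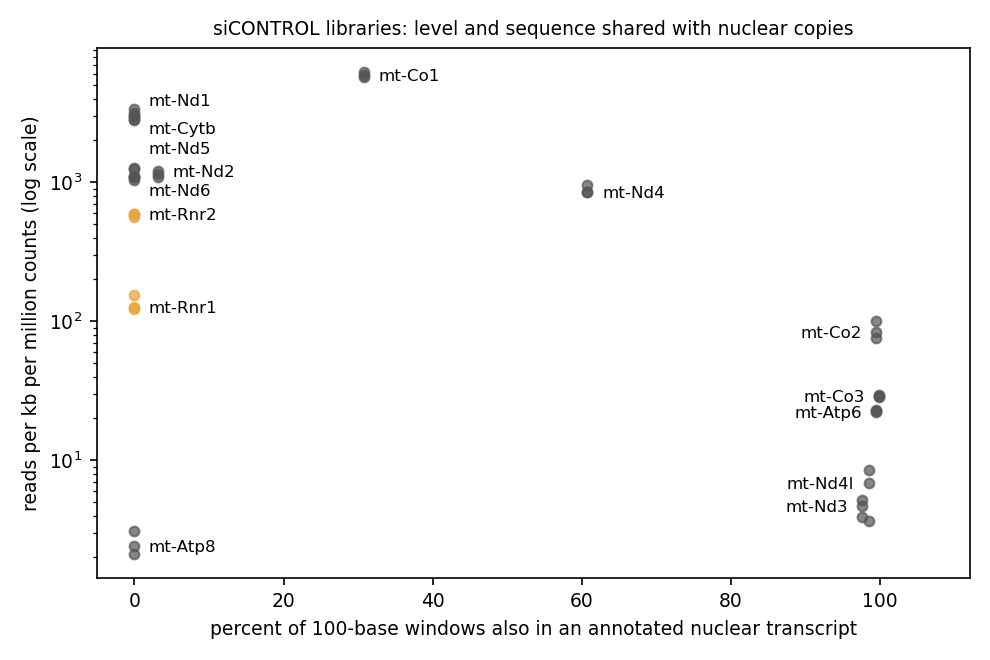
RPKM (CPM per kb of gene length, log scale) of the mitochondrial mRNAs (grey) and rRNAs (orange) in each of the 3 siCONTROL libraries, against the percent of a gene's 100-base windows found in an annotated nuclear transcript. The 5 mRNAs near 100% lie at means between 4.57 and 86.7, and the 7 mRNAs from mt-Co1 (5970) to mt-Nd4 (883) share 60.8% or less.

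The ends of the mRNAs are shown because the libraries were selected for poly(A) and 3 of the 13 annotated mRNAs (mt-Co3, mt-Nd4 and mt-Cytb) stop after the T of the stop codon, which the poly(A) tail completes. The other 10 carry a whole stop codon, as in mt-Nd1. Capitals mark the bases of the stop codon within the last 18 bases.
mt-Cytb (MT:15271-15288, plus strand): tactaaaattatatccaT
mt-Nd4 (MT:11527-11544, plus strand): ttacaggcctgacaataT
mt-Nd1 (MT:3690-3707, plus strand): gtaccaccatacataTAG

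The share of all counts that fell on the mitochondrial chromosome was higher in every depleted library than in every control library. It was 2.20, 2.24 and 2.16% in the siCONTROL libraries (2.20% ± 0.0438, SD, n = 3). It was 3.43, 3.70 and 2.73% in siKEAP1 libraries (3.29% ± 0.498, SD, n = 3), 3.83, 3.29 and 3.45% in siCCNF (3.53% ± 0.275) and 3.35, 3.46 and 3.29% in siKEAP1/siCCNF (3.37% ± 0.0856). The means were 1.49, 1.60 and 1.53 times that of siCONTROL, and the 3 depletions overlapped one another. For each depletion the two-sided exact permutation test gave p = 0.10, the smallest that 3 libraries against 3 allow. In bulk RNA, more mitochondrial RNA per mitochondrion, more mitochondria per cell and less other polyadenylated RNA cannot be told apart.

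**Figure D2:**
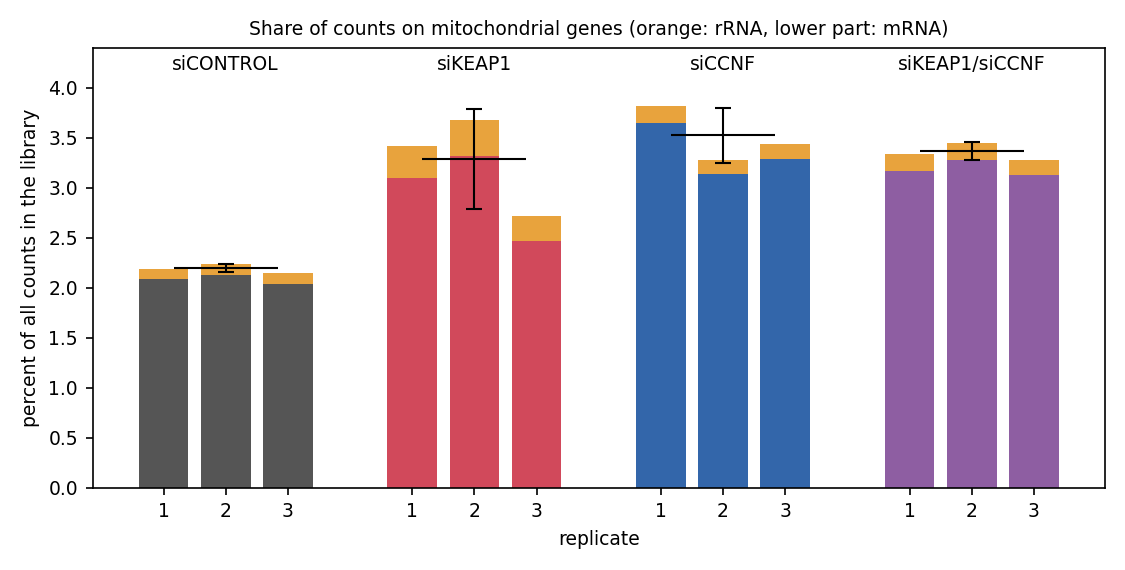
Percent of all counts on mitochondrial mRNA genes (lower part of each bar) and rRNA genes (orange) in each library by replicate number; the tRNAs, at mean shares of 0.0093 to 0.0147%, are not drawn. The line and whiskers are the group mean and SD of the share of all mitochondrial genes, 2.20% in siCONTROL and 3.29, 3.53 and 3.37% in the depletions.

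After siKEAP1, 9 of the 13 mitochondrial mRNAs rose and none fell, at a Benjamini-Hochberg adjusted p under 0.05 in edgeR's quasi-likelihood test, where 20.4% of all 15122 genes tested rose. After siCCNF 10 of 13 rose, against 22.5% of all genes, and after siKEAP1/siCCNF 9 of 13 rose, against 20.6%. The median log2 fold change of the 13 mRNAs was 0.53, 0.72 and 0.65 in the 3 depletions, and the median over all genes tested was -0.01, 0.01 and 0.01. All libraries of the depletion lay above all siCONTROL libraries for 11, 10 and 9 of the 13, which 25.8, 27.8 and 23.2% of all genes did. Rises over 2-fold numbered 1, 2 and 2 of the 13, where 7.59, 4.61 and 4.73% of all genes had them. They were mt-Atp6 in each depletion, with mt-Nd4l in siCCNF and mt-Atp8 in siKEAP1/siCCNF, all from low counts. The 3 comparisons share the siCONTROL libraries. These changes are relative to all RNA counted: with libraries scaled to their mitochondrial mRNA reads, which sets the total of these mRNAs equal, the medians of the 13 were 0.045, 0.0073 and 0.035 and those of all genes -0.49, -0.70 and -0.60.

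**Figure D3:**
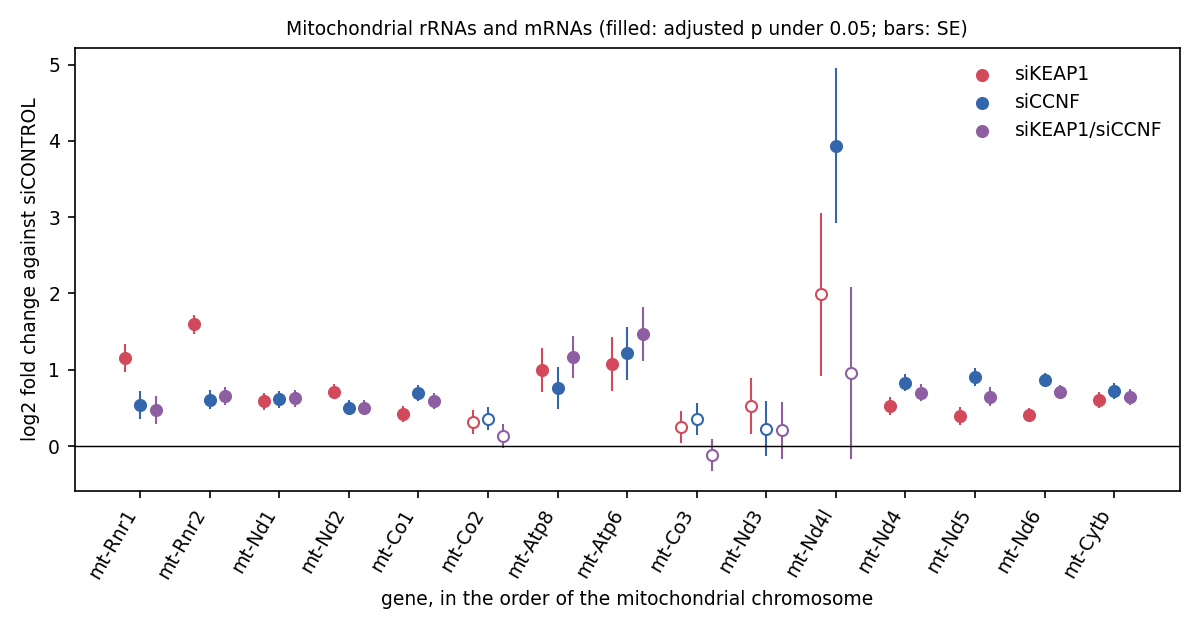
Log2 fold change against siCONTROL (y axis) of the rRNAs and mRNAs in the order of the mitochondrial chromosome (x axis), for each depletion, with SE as bars and filled points for an adjusted p under 0.05. In siKEAP1 the rRNAs mt-Rnr1 (1.16) and mt-Rnr2 (1.60) lie above the median of the mRNAs (0.53), and the widest bars are those of mt-Nd4l.

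Complex I subunits gave 7 of the 13 mRNAs. mt-Nd1 lay at 3211, 2875 and 2718 CPM (from here on scaled by TMM) in siCONTROL, 4650, 4913 and 3662 in siKEAP1, 4996, 4044 and 4456 in siCCNF, and 4320, 4411 and 4839 in siKEAP1/siCCNF. No depleted library reached down to the siCONTROL range, and mt-Nd1 rose by a log2 fold change of 0.59, 0.62 and 0.62. mt-Nd2, another core subunit of the membrane arm, lay at 1122 to 1253 in siCONTROL, 1623 to 2157 in siKEAP1, 1557 to 1792 in siCCNF and 1601 to 1731 in siKEAP1/siCCNF, and rose by 0.71, 0.51 and 0.50. mt-Nd4 rose by 0.52, 0.83 and 0.70, again without overlap between siCONTROL and any depletion. mt-Nd5 rose by 0.39, 0.90 and 0.65. Its rise after siKEAP1 (edgeR's quasi-likelihood test, adjusted p = 0.0189) was lost without siCONTROL replicate 1, siKEAP1 replicate 1 or siKEAP1 replicate 2, where adjusted p was 0.0656 to 0.105.

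mt-Nd6 is the only mRNA encoded on the other strand, which leaves it with 28.1% G and 5.97% C where the other mRNAs have 5.88 to 16.1% G. It overlaps the end of mt-Nd5 on the opposite strand by 14 bases. This stretch is shown on the plus strand because a read there could be counted for either gene if strand was not used. In that case reads of long plus-strand transcripts across mt-Nd6, or across a minus-strand tRNA gene, would also count for that gene. The strand setting is not given in the sources used here. Neither its part in the mt-Nd6 results nor that of the poly(A) selection was tested.
mt-Nd5/mt-Nd6 overlap (MT:13552-13565): ttaatctcgagtaa

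mt-Nd6 stood at 561, 565 and 571 CPM in siCONTROL, 767, 853 and 633 in siKEAP1, 1136, 960 and 999 in siCCNF, and 889, 958 and 927 in siKEAP1/siCCNF. The siCONTROL libraries were close together and every depleted library was higher. The log2 fold changes were 0.41 (SE 0.0962, adjusted p = 0.00408), 0.87 (adjusted p = 9e-06) and 0.71 (adjusted p = 5.8e-05) by edgeR's quasi-likelihood test. Against the plus-strand mRNAs, mt-Nd6 had 5.65, 5.74 and 6.13 reads per 100 reads of mt-Nd1, mt-Nd2, mt-Nd5 and mt-Cytb in siCONTROL, 5.05, 5.33 and 5.32 in siKEAP1, 6.57, 6.59 and 6.35 in siCCNF, and 6.07, 6.29 and 6.20 in siKEAP1/siCCNF. This ratio was thus below siCONTROL in all siKEAP1 libraries and above it in all siCCNF libraries, and the range of siKEAP1/siCCNF overlapped that of siCONTROL.

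mt-Nd4l and mt-Nd3, both with nearly all windows shared with nuclear copies, were counted with few reads. mt-Nd4l had 24, 47 and 42 reads in siCONTROL, 295, 102 and 101 in siKEAP1, 2598, 133 and 213 in siCCNF, and 139, 106 and 46 in siKEAP1/siCCNF. The siCCNF mean rests on replicate 1. The log2 fold change after siCCNF was 3.94 (adjusted p = 0.00621 by edgeR's quasi-likelihood test) and 1.55 without that library (adjusted p = 0.0421). Without it the siKEAP1 difference of 1.99 (adjusted p = 0.162) became 1.98 with an adjusted p of 0.00946. mt-Nd3 did not pass the test in any depletion, at 0.53 in siKEAP1, 0.23 in siCCNF and 0.21 in siKEAP1/siCCNF.

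mt-Cytb, the single mitochondrial gene of complex III, lay at 3570, 3458 and 3201 CPM in siCONTROL, 5519, 5740 and 4229 in siKEAP1, 6188, 5157 and 5556 in siCCNF, and 5183, 5372 and 5478 in siKEAP1/siCCNF. All depleted libraries lay above siCONTROL. It rose by 0.60 (adjusted p = 0.00049), 0.72 and 0.65 (adjusted p = 0.000239) by edgeR's quasi-likelihood test.

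Of the complex IV subunits, mt-Co1 rose in each depletion and mt-Co2 and mt-Co3 did not pass the test. mt-Co1 lay at 8869, 9644 and 9160 CPM in siCONTROL, 12784, 14092 and 10096 in siKEAP1, 16437, 14125 and 14323 in siCCNF, and 14047, 14177 and 13327 in siKEAP1/siCCNF, again with no overlap with siCONTROL. Its log2 fold changes were 0.42, 0.70 and 0.59. With limma on log2(FPKM + 1) the calls in siKEAP1 (adjusted p = 0.219) and siKEAP1/siCCNF (adjusted p = 0.0785) were lost. mt-Co2 differed by 0.32, 0.36 and 0.14, with at least 1 library of each depletion inside the siCONTROL range of 51.7 to 68.4. It passed the test after siCCNF when siCONTROL replicate 1 or siCCNF replicate 3 was left out (adjusted p = 0.0447 or lower by edgeR's quasi-likelihood test), and after siKEAP1 without siKEAP1 replicate 3 (adjusted p = 0.0465). mt-Co3 differed by 0.25, 0.36 and -0.11, and passed after siCCNF without siCCNF replicate 2 (0.59, adjusted p = 0.0121).

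The ATP synthase subunits mt-Atp6 and mt-Atp8 rose. mt-Atp6 shares 99.5% of its windows with nuclear copies, and mt-Atp8 had few reads. mt-Atp6 lay at 15.2, 15.4 and 15.7 CPM in siCONTROL, 29.3, 44.7 and 23.0 in siKEAP1, 25.3, 28.7 and 52.9 in siCCNF, and 48.8, 55.8 and 22.4 in siKEAP1/siCCNF. The control libraries were tight and each depletion spread about 2-fold, without reaching the controls. The log2 fold changes were 1.07 (adjusted p = 0.0264), 1.21 (adjusted p = 0.0115) and 1.47 (adjusted p = 0.0041) by edgeR's quasi-likelihood test. The call in siKEAP1 was lost without any 1 of the 3 siCONTROL libraries or siKEAP1 replicate 2 (adjusted p 0.0558 to 0.137), and that in siCCNF without siCCNF replicate 3 (0.81, adjusted p = 0.0699). mt-Atp8 had 11, 8 and 13 reads in siCONTROL, 24, 28 and 20 in siKEAP1, 34, 21 and 32 in siCCNF, and 34, 39 and 22 in siKEAP1/siCCNF. It rose by 1.00, 0.76 and 1.17, and the siCCNF call was lost without siCONTROL replicate 1 or 2 or any siCCNF library (adjusted p 0.0541 to 0.117).

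The 5 mRNAs with under 5% of windows shared with the nucleus, mt-Nd1, mt-Nd2, mt-Nd5, mt-Nd6 and mt-Cytb, rose in each of the 3 depletions. Their median log2 fold changes were 0.59, 0.72 and 0.65. Of all genes, 20.4, 22.5 and 20.6% rose with the counts as deposited. When the reads of the nuclear copies were added to each mRNA, 10, 10 and 9 of the 13 rose, and mt-Nd3 passed in siKEAP1 (0.55, adjusted p = 0.00881 by edgeR's quasi-likelihood test). The change of mt-Nd4l after siCCNF was then 2.16 (adjusted p = 0.012 by the same test). Those of mt-Atp6 were 0.81, 0.80 and 0.92 in the 3 depletions, below 2-fold.

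The rRNAs were highest in the siKEAP1 libraries. mt-Rnr2, the large-subunit rRNA of the mitochondrial ribosome (MT:1094-2675), lay at 881, 942 and 935 CPM in siCONTROL and 2882, 3218 and 2243 in siKEAP1. It lay at 1540, 1289 and 1379 in siCCNF and 1540, 1532 and 1265 in siKEAP1/siCCNF. Every siKEAP1 library was above every other library, and the remaining depleted libraries were above siCONTROL. The log2 fold changes were 1.60 (SE 0.123, adjusted p = 3.76e-07) in siKEAP1, 0.61 (adjusted p = 0.000998) in siCCNF and 0.65 (adjusted p = 0.000648) in siKEAP1/siCCNF by edgeR's quasi-likelihood test.

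mt-Rnr1, the small-subunit rRNA (MT:70-1024), lay at 146, 117 and 120 CPM in siCONTROL, 244, 389 and 223 in siKEAP1, 218, 160 and 177 in siCCNF, and 166, 173 and 194 in siKEAP1/siCCNF. The siKEAP1 libraries were again the highest, with siCCNF replicate 1 just below them. The log2 fold changes were 1.16 (SE 0.184, adjusted p = 0.000215), 0.54 (adjusted p = 0.0272) and 0.48 (adjusted p = 0.0488) by edgeR's quasi-likelihood test. The call after siCCNF was lost without siCONTROL replicate 2 or 3 or siCCNF replicate 1 (adjusted p 0.0772 to 0.118). That after siKEAP1/siCCNF was lost in 8 of the 12 fits with a library left out (adjusted p 0.0538 to 0.143): without siCONTROL replicate 2 or 3, siKEAP1 replicate 1, siCCNF replicate 2 or 3, or any siKEAP1/siCCNF library. It was also lost with the reads of the nuclear copies added (adjusted p = 0.0509).

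Within the mitochondrial reads, rRNA reads per 100 mRNA reads numbered 4.94, 4.97 and 5.20 in siCONTROL and 10.2, 10.9 and 10.2 in siKEAP1, 2.07 times as many. They numbered 4.68, 4.56 and 4.67 in siCCNF and 5.40, 5.25 and 4.65 in siKEAP1/siCCNF. The ratio was thus raised in siKEAP1 alone, slightly below siCONTROL in siCCNF, and overlapping siCONTROL in the double depletion. With libraries scaled to their mitochondrial mRNA reads, mt-Rnr1 was higher in siKEAP1 by 0.65 (adjusted p = 0.000331) and mt-Rnr2 by 1.10 (adjusted p = 7.87e-10) in edgeR's quasi-likelihood test, and neither passed in siCCNF (-0.19 and -0.11). Reads of mt-Rnr2 per read of mt-Rnr1 were 6.03, 8.06 and 7.80 in siCONTROL and 11.8, 8.27 and 10.05 in siKEAP1. The larger rRNA was thus the more raised in all 3 siKEAP1 libraries, by a margin that was small in replicate 2. These reads numbered 7.06, 8.06 and 7.79 in siCCNF and 9.29, 8.85 and 6.51 in siKEAP1/siCCNF. Both groups overlapped siCONTROL, and siKEAP1/siCCNF also overlapped siKEAP1.

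Selection for poly(A) keeps rRNA only in part, and how much it kept in each library was not tested. The longest run of adenines is 7 bases in mt-Rnr2 and 5 in mt-Rnr1, within the range of the mRNAs, from 3 in mt-Nd6 to 8 in mt-Nd2. siKEAP1 replicate 2 held 0.179% cytosolic rRNA where the other libraries held 0.0480 to 0.0952%, and the nonpolyadenylated RNA Rn7sk lay at 13.8 CPM of the library total there against 0.835 to 3.65. Without this library mt-Rnr1 was higher in siKEAP1 by 0.87 (adjusted p = 0.000349) and mt-Rnr2 by 1.47 (adjusted p = 2.66e-06) by edgeR's quasi-likelihood test, and the mRNAs that rose numbered 7. The carry-over of other RNA into the remaining siKEAP1 libraries was within the range of the other groups.

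**Figure D4:**
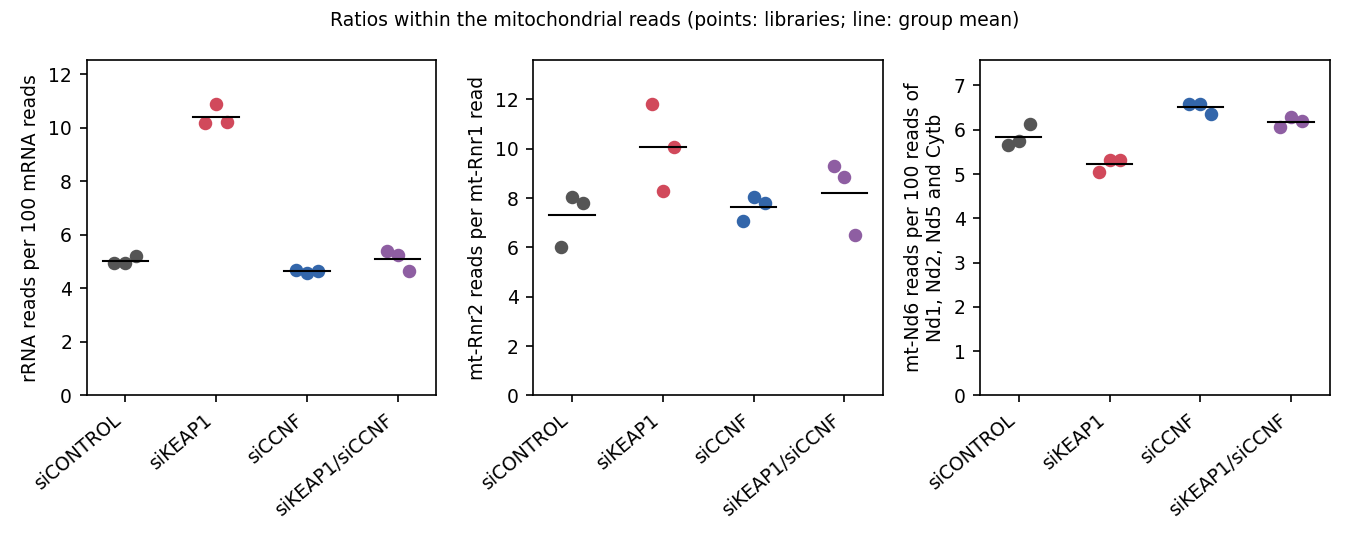
Ratios within the mitochondrial reads of each library (points) with group means (lines): rRNA reads per 100 mRNA reads, mt-Rnr2 reads per mt-Rnr1 read, and mt-Nd6 reads per 100 reads of 4 plus-strand mRNAs. In the first panel siKEAP1 lies at 10.2 to 10.9 and all other libraries at 4.56 to 5.40.

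Mature tRNAs are short and not polyadenylated, and which molecules the reads on tRNA genes come from was not tested. The 22 tRNA genes held a mean of 0.0093% of counts in siCONTROL and 0.0141, 0.0145 and 0.0147% in the depletions. Of the 15 tested, 8 rose in siKEAP1, 6 in siCCNF and 4 in siKEAP1/siCCNF, and none fell. These are 53.3, 40 and 26.7% of the tested tRNAs, where 20.4, 22.5 and 20.6% of all genes rose, so the share in siKEAP1/siCCNF was near that of all genes. The medians were 0.54, 0.55 and 0.39. mt-Tp, the proline tRNA on the minus strand, lay at 20.5, 21.3 and 18.7 CPM in siCONTROL, 31.0, 38.2 and 27.7 in siKEAP1, 56.1, 47.8 and 46.2 in siCCNF, and 43.2, 49.9 and 43.7 in siKEAP1/siCCNF. The groups did not overlap siCONTROL, and the siCCNF and siKEAP1/siCCNF libraries all lay above siKEAP1. mt-Tp rose by 0.68, 1.31 and 1.18, mt-Tl1 (leucine) by 0.54, 0.66 and 0.78, and mt-Tc (cysteine) by 0.43, 0.65 and 0.83. The others that rose in siKEAP1 were mt-Tw, mt-Ty, mt-Th (1.08), mt-Ts2 and mt-Tl2. In siCCNF they were mt-Tn, mt-Ty and mt-Th, and in siKEAP1/siCCNF mt-Tt. mt-Ti, mt-Tq, mt-Tm, mt-Ta and mt-Te did not pass the test in any depletion. The 7 untested genes (mt-Tf, mt-Tv, mt-Ts1, mt-Td, mt-Tk, mt-Tg and mt-Tr) had 0 to 69 reads over all 12 libraries. Of these, mt-Ts1, mt-Td, mt-Tk, mt-Tg and mt-Tr, with 1 to 4 reads each, lie between mt-Co1 and mt-Nd4l. Both mRNAs have copies in the stretch of chromosome 1 given above. Whether that stretch also holds these tRNA genes was not searched.

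Both rRNAs were lower in siKEAP1/siCCNF than in siKEAP1, and 12 of the 13 mRNAs did not pass the test. Keap1 itself was higher in siKEAP1/siCCNF than in siKEAP1 by 0.93 (adjusted p = 1.07e-06 in edgeR's quasi-likelihood test), so the effects of losing CCNF and of the weaker depletion of KEAP1 cannot be told apart here. In siKEAP1/siCCNF against siKEAP1, the log2 fold change was -0.68 for mt-Rnr1 (adjusted p = 0.00671) and -0.94 for mt-Rnr2 (adjusted p = 2.62e-05) in edgeR's quasi-likelihood test, where 26.9% of all genes fell. Of the mRNAs only mt-Nd6 rose (0.30, adjusted p = 0.019 by the same test), where 24.1% of all genes rose, and the median of the 13 was 0.05. The mt-Nd6 call was lost without siKEAP1 replicate 3 (adjusted p = 0.0844) or siKEAP1/siCCNF replicate 2 (adjusted p = 0.0589). Without siKEAP1 replicate 2, 3 mRNAs rose: mt-Nd6 with mt-Co1 (0.28) and mt-Nd5 (0.35). Among the tRNAs mt-Tc (0.40) and mt-Tp (0.50) rose, and mt-Th (-0.76) and mt-Ts2 (-0.78) fell.

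Adding siKEAP1 to siCCNF changed no mitochondrial gene at an adjusted p under 0.05 in edgeR's quasi-likelihood test or, among the mRNAs, in DESeq2, where 5.19% of all genes changed. At an unadjusted p under 0.05 in edgeR, 2 mRNAs were lower, mt-Co3 and mt-Nd4l, and none of the rRNAs or tRNAs passed. The median of the 13 mRNAs was -0.11. Without siCCNF replicate 2, mt-Co3 (-0.71, adjusted p = 0.0369) and mt-Nd4l (-3.47, adjusted p = 0.0451) passed.

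The interaction asks whether both siRNAs together give the sum of their separate log2 changes, and the weaker depletion of KEAP1 in the double enters it too. It was negative for all 13 mRNAs, both rRNAs and all 15 tested tRNAs, and passed the test for 8 mRNAs, both rRNAs and 3 tRNAs, where 10.5% of all genes had a negative interaction at that threshold. The median over the mRNAs was -0.65. It was -1.22 (adjusted p = 0.00453) for mt-Rnr1 and -1.55 (adjusted p = 4.84e-05) for mt-Rnr2 in edgeR's quasi-likelihood test, and -0.53 to -0.71 for mt-Nd1, mt-Nd2, mt-Co1, mt-Nd4, mt-Nd5, mt-Nd6 and mt-Cytb. mt-Nd4l gave -4.96, and -2.58 (adjusted p = 0.0293) without siCCNF replicate 1 or -2.70 (adjusted p = 0.0434) with the reads of the nuclear copies added. It was lost without siKEAP1 replicate 1 (adjusted p = 0.0725). Leaving out siKEAP1 replicate 2 took the count of mRNAs to 5, since mt-Nd1, mt-Co1 and mt-Nd5 no longer passed (-0.50, -0.42 and -0.56), and mt-Co1 was also lost without siKEAP1 replicate 1 or siCCNF replicate 1. With limma on log2(FPKM + 1) the interactions of mt-Nd2 and mt-Nd4 passed and those of the other 6 mRNAs did not. With libraries scaled to mitochondrial mRNA reads the interaction was -0.60 (adjusted p = 0.0206) for mt-Rnr1 and -0.95 (adjusted p = 8.27e-05) for mt-Rnr2. Of the mRNAs only mt-Nd4l then passed, and the median of the 13 was -0.052.

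Nuclear genes that serve the mitochondrial chromosome are given from lists of known roles. Of the core factors, Polrmt, Tefm (the elongation factor of POLRMT), Twnk (the replicative helicase), Elac2 (which cuts tRNA 3' ends), Mtpap (the poly(A) polymerase) and Pnpt1 (an RNA-degrading phosphorylase) did not pass the test in any depletion. Tfam fell in siCCNF (-0.42) and siKEAP1/siCCNF (-0.27), as did Tfb2m (-0.44 and -0.31), and both were near 0 in siKEAP1 (-0.07 and -0.02). Lrpprc, which stabilizes mitochondrial mRNAs, rose in siCCNF (0.37) and siKEAP1/siCCNF (0.33), and its partner Slirp rose in siKEAP1/siCCNF (0.49). Polg, the DNA polymerase, fell in siKEAP1 (-0.25). Supv3l1, the degradation helicase, fell in siKEAP1 (-0.24) and rose in siKEAP1/siCCNF (0.23). Ppargc1a, a coactivator of mitochondrial biogenesis, rose from a mean of 0.388 CPM to 2.30, 1.73 and 1.36, by 2.55, 2.13 and 1.81.

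The nuclear lists held genes that rose and genes that fell. Of all genes, 20.4, 22.5 and 20.6% rose and 20.2, 25.5 and 23.6% fell in siKEAP1, siCCNF and siKEAP1/siCCNF. Of 31 genes of mitochondrial DNA transcription and maintenance, 3 rose and 8 fell in siKEAP1, 3 and 6 in siCCNF, and 2 and 6 in siKEAP1/siCCNF. The rises were 9.68, 9.68 and 6.45% of the list, below the shares of all genes, and the falls 25.8, 19.4 and 19.4%. The nucleotide carrier Slc25a33 rose in all depletions (1.00, 0.50 and 0.80), Dguok fell in siKEAP1 (-0.95), and Rrm2b fell by 1.45 in both siCCNF and siKEAP1/siCCNF. Of 35 genes of mitochondrial RNA processing, 2 rose and 4 fell, then 6 and 5, then 8 and 5, in the same order of depletions (5.71, 17.1 and 22.9% rose and 11.4, 14.3 and 14.3% fell), with medians of 0.02, 0.05 and 0.07. The RNA methyltransferase genes Nsun3 (0.64 in siKEAP1) and Trmt10c (0.42 in siCCNF) were among the rises, with Hsd17b10, a subunit of mitochondrial RNase P (0.49 in siKEAP1), and Tbrg4, an RNA-binding FASTK protein (0.47 in siCCNF and 0.44 in siKEAP1/siCCNF). Fastk fell in siKEAP1 (-0.54), and Mto1, which modifies tRNAs, fell in siCCNF (-0.51) and siKEAP1/siCCNF (-0.68). Of 15 regulators of biogenesis, 1 rose and 3 fell, then 5 and 6, then 3 and 6, so that 20% fell in siKEAP1 and 40% in each of the others. The coactivator Ppargc1b fell in all depletions (-0.58, -1.01 and -1.21), Creb1 fell in siCCNF (-1.16) and siKEAP1/siCCNF (-1.02), and Myc rose there (0.60 and 0.52).

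Of 74 nuclear subunits of complexes I, III, IV and V, 0 rose and 16 fell in siKEAP1, with a median of -0.22. The falls were 21.6% of the list, near the 20.2% of all genes, while 20.4% of all genes rose. Among those that fell were Ndufs8 (-0.89, complex I), Uqcr11 (-0.88, complex III), Cox8a (-0.55, complex IV) and Atp5k (-0.83, ATP synthase). In siCCNF 2 rose and 9 fell (median -0.02), among them Cox6b1 (-0.83), Cox7a2 (-0.71) and Atp5b (-0.53, the catalytic subunit of ATP synthase). In siKEAP1/siCCNF 5 rose and 5 fell (median 0.02), and in siKEAP1/siCCNF against siKEAP1 25 rose and 3 fell (33.8 and 4.05%), where 24.1% of all genes rose and 26.9% fell. In siCCNF and siKEAP1/siCCNF the list's shares that rose (2.70 and 6.76%) and fell (12.2 and 6.76%) were below those of all genes. Of the 4 complex II subunits, all nuclear, 2, 1 and 1 fell (50, 25 and 25%, where 20.2, 25.5 and 23.6% of all genes fell), led by the iron-sulfur subunit Sdhb in siKEAP1 (-0.86) and siKEAP1/siCCNF (-0.44).

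Of 77 mitochondrial ribosome proteins, the partners of the rRNAs, 5 rose and 15 fell in siKEAP1 (median -0.13), 6 and 14 in siCCNF, and 11 and 9 in siKEAP1/siCCNF. The falls, at 19.5, 18.2 and 11.7% of the list, and the rises, at 6.49, 7.79 and 14.3%, did not exceed the shares of all genes. Mrpl20 fell by 2.09 on the log2 scale in siKEAP1, and Mrpl30 rose in siCCNF (0.42) and siKEAP1/siCCNF (0.51). Of 22 mitochondrial tRNA synthetases, 0 rose and 1 fell in siKEAP1, 6 rose and 3 fell in siCCNF, and 8 rose and 1 fell in siKEAP1/siCCNF, so that 27.3 and 36.4% rose in the latter groups, where 22.5 and 20.6% of all genes did. Ears2, which charges the glutamate tRNA, rose in siCCNF (0.78) and siKEAP1/siCCNF (0.67). Of 23 nuclear markers of mitochondrial content, 1 rose and 3 fell in siKEAP1, 5 and 6 in siCCNF, and 6 and 3 in siKEAP1/siCCNF, with medians of -0.08, -0.0022 and -0.07. In siCCNF 21.7% rose and 26.1% fell, near the 22.5 and 25.5% of all genes, and in siKEAP1 4.35% rose and 13.04% fell. In siKEAP1/siCCNF 26.1% rose and 13.04% fell. Tomm20, an import receptor of the outer membrane, rose in all depletions (0.25, 0.40 and 0.49), citrate synthase (Cs) rose in siCCNF (0.43) and siKEAP1/siCCNF (0.44), and Vdac1, the outer membrane channel, fell in siKEAP1 (-0.45).

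**Figure D5:**
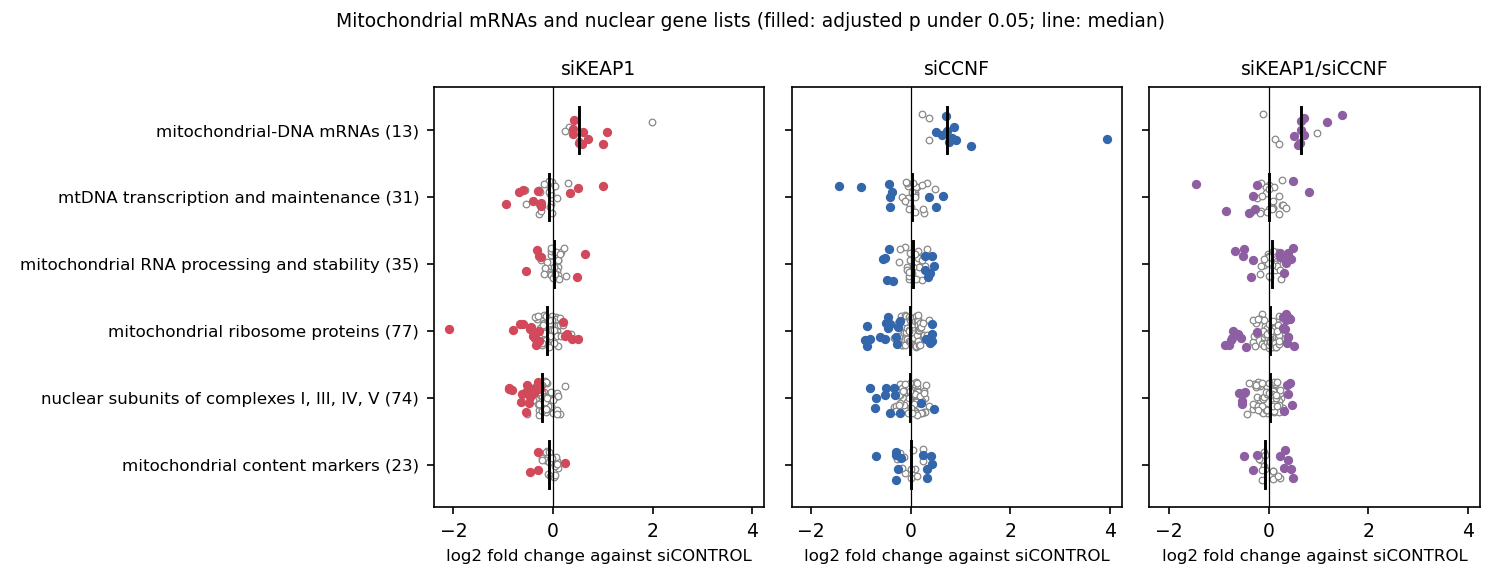
Log2 fold change against siCONTROL (x axis) of the 13 mitochondrial mRNAs and of the tested genes of 5 nuclear lists (number in brackets), with filled points for an adjusted p under 0.05 and a line at the median. The median of the mitochondrial mRNAs lies at 0.53, 0.72 and 0.65 in the 3 depletions, and that of the nuclear respiratory subunits at -0.22, -0.02 and 0.02.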

How the data were processed

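The authors sequenced poly(A)-selected RNA from 12 C2C12 cultures, 3 per group, and deposited 1 table of read counts per gene for each library without normalization. The deposited table also holds FPKM values per library, made by the authors' service provider, and the authors' own fold changes and p-values, which were not used. The submitters' processing notes name HISAT2 and GRCm39, but 98.3% of the 54409 genes shared with GENCODE M21, and all 37 mitochondrial genes, have the coordinates of GRCm38. The counting tool, the strand setting, the read length and the handling of reads with several places to map are not given in the sources used here.

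Tests used edgeR 4.0.16 under R 4.3.3 (filterByExpr, 15122 genes kept, TMM scaling, factors 0.971 to 1.02). All 12 libraries entered a single quasi-likelihood fit with a mean per group, and Benjamini-Hochberg adjustment covered the 15122 genes. A gene rose or fell at an adjusted p under 0.05. The p-values measure the spread between these biological replicates. No 2 libraries agreed within sampling noise. The labels number the replicates without saying whether equal numbers pair libraries across groups, and no block was used. Shared windows were exact 100-base matches to annotated nuclear transcripts of GENCODE M21 only.

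All mitochondrial genes are named, with Keap1, Ccnf, 13 core nuclear factors, and from each nuclear list some of its 2 largest rises and falls without overlap between libraries. The mitochondrial genes as a subject and the nuclear lists were chosen with earlier results of these data known, although the members follow from the chromosome alone, and list genes were written from common usage. Alternatives were DESeq2 1.42.0, limma 3.58.1 on log2(FPKM + 1), other filters, scalings and library subsets. Adding the reads of nuclear copies, and the median of the mRNAs with under 5% of windows shared, were chosen after seeing the data. The test was tried on simulated data with known changes.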

Additional observations from a re-analysis of the deposited data

Results flagged for a closer look

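The interaction of siKEAP1 and siCCNF passed edgeR's quasi-likelihood test at an adjusted p under 0.05 for 13 of the 30 mitochondrial genes tested. All 13 terms were negative, where 10.5% of all genes had a negative term at that threshold. Keap1 was depleted less in siKEAP1/siCCNF (-1.86) than in siKEAP1 (-2.80). Loss of CCNF and the weaker depletion of KEAP1 therefore cannot be told apart in these terms. For the rRNAs the interaction on the log2 scale was -1.22 (mt-Rnr1) and -1.55 (mt-Rnr2). For the mRNAs it was -0.58 (mt-Nd1), -0.71 (mt-Nd2), -0.53 (mt-Co1), -4.96 (mt-Nd4l), -0.65 (mt-Nd4), -0.65 (mt-Nd5), -0.57 (mt-Nd6) and -0.67 (mt-Cytb). For the tRNAs it was -1.09 (mt-Ty), -1.24 (mt-Th) and -0.81 (mt-Tp). The mt-Nd4l term was -2.58 without siCCNF replicate 1. In limma on log2(FPKM + 1), 2 of the 8 mRNA terms passed.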

How the results depend on the processing

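Of the values for single mRNAs and rRNAs under settings other than leaving out 1 library, 961 kept their direction and side of the threshold, 30 gained a call, 46 lost it and 16 reversed. The reversals all came from scaling libraries to their mitochondrial mRNA reads, a setting that fixes the total of these mRNAs. With it 2 mRNAs were called in siKEAP1 against siCONTROL, all higher. In siCCNF 3 were called (2 higher, 1 lower) and in siKEAP1/siCCNF 3 (1 higher, 2 lower). Calls in siKEAP1/siCCNF numbered 3 against siKEAP1 and 1 against siCCNF, with 1 for the interaction, all lower. The medians became 0.045, 0.0073 and 0.035, and -0.052 for the interaction. Reversed values were -0.078 (mt-Co1), -0.10 (mt-Nd5) and -0.086 (mt-Nd6) in siKEAP1. In siCCNF they were -0.10 (mt-Nd1), -0.21 (mt-Nd2), -0.019 (mt-Co1), -0.37 (mt-Co2), -0.19 (mt-Rnr1) and -0.11 (mt-Rnr2). In siKEAP1/siCCNF they were -0.11 (mt-Nd2), -0.027 (mt-Co1), -0.48 (mt-Co2) and -0.14 (mt-Rnr1), and for the interaction 0.020 (mt-Nd1), 0.070 (mt-Co1) and 0.031 (mt-Nd6).

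Called mRNAs in siKEAP1/siCCNF against siKEAP1 numbered 4 with no filter on low counts, 4 without the 2 libraries that deviate with gene length (siCONTROL replicate 1 and siKEAP1/siCCNF replicate 3), 2 in a fit of the compared groups only and 0 with limma on log2(FPKM + 1). Without the filter 2 were called against siCCNF, and with limma 2 interactions were. A 2-fold threshold left 1, 2 and 2 against siCONTROL, 0 against siKEAP1 and 1 interaction. The cause of these differences was not tested. DESeq2 gave 9, 8, 9, 1, 0 and 7 calls in the 6 comparisons, with no adjusted p for mt-Nd4l. The block for the replicate number left the counts at 9, 10, 9, 1, 0 and 8, but in siCCNF mt-Co2 gained (adjusted p = 0.0354) and mt-Atp8 lost its call (adjusted p = 0.055), as did mt-Rnr1 in siKEAP1/siCCNF (adjusted p = 0.0651). Deviations of same-numbered libraries correlated at -0.27 to 0.20 and those of differently numbered libraries at -0.28 to 0.39. The numbers were not taken to pair libraries, which these values do not settle.

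With each library left out in turn, calls ranged from 7 to 10 in siKEAP1, 9 to 10 in siCCNF and 9 to 9 in siKEAP1/siCCNF. They ranged from 0 to 3 against siKEAP1 (3 without siKEAP1 replicate 2, 0 without siKEAP1/siCCNF replicate 2 and 2 without its replicate 3), 0 to 2 against siCCNF (2 without siCCNF replicate 2) and 5 to 9 for the interaction (5 without siKEAP1 replicate 2). The medians ranged from 0.47 to 0.65, 0.65 to 0.79 and 0.60 to 0.66 against siCONTROL, -0.07 to 0.13 against siKEAP1, -0.19 to -0.04 against siCCNF and -0.76 to -0.55 for the interaction. The mitochondrial share was higher than in siCONTROL by 0.883 to 1.37, 1.17 to 1.44 and 1.12 to 1.21 percentage points. Low counts limit mt-Atp8, mt-Nd3, mt-Nd4l and the 7 untested tRNAs.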
